A study of Mus musculus with 2 samples.

Results

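Several genes are commonly used as surface and niche markers of muscle stem cells, and their loci were examined for peaks of chromatin immunoprecipitation with sequencing (ChIP-seq). The genes were Ncam1, Vcam1, Cdh15, Sdc3, Sdc4, Cav1, Cd34, Cxcr4 and Pdpn, 9 of 21774 protein-coding genes in the RefSeq table of GRCm38.p6. A peak was counted for a gene when its summit, the position with the most ChIP fragments, lay inside the gene span or within 100 kb of it. By this rule 18 of the 2977 peaks fell to 7 of the 9 genes, and Sdc3 and Cd34 had none. The members were listed with earlier results of the same peaks known, so the counts describe these loci and are no independent evidence about them.

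The ChIP library came from untreated muscle stem cells of C57BL/6 mice with the genotype Pax7-YFP KI, a knock-in of yellow fluorescent protein at Pax7, and was made with an antibody against GFP, which also binds YFP. The other library was input DNA from untreated muscle stem cells of the same strain and genotype, without antibody, so both libraries carried the knock-in allele. Cells had been isolated by fluorescence-activated sorting, and the series asks which genes PAX7 targets. The ChIP library held 10622111 tags and the input library 20429667, and as each kind was sequenced as 1 library, no value had a replicate and nothing was tested. The labels do not state whether YFP is fused to the PAX7 protein. ChIP from cells without the knock-in was not analysed here. Pax7 itself, the paired box and homeodomain regulator that marks these cells, held 2 peaks inside its span, the stronger at 14.7-fold (95% interval 9.92 to 21.0). As the libraries came from bulk cells, more cells with an occupied site and stronger occupancy per cell cannot be told apart.

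Muscle stem cells lie between the muscle fibre membrane and the basal lamina, and their surface proteins hold them there, receive signals and are used to sort them. NCAM1, VCAM1 and M-cadherin (from Cdh15) bind neighbouring cells, and the syndecans SDC3 and SDC4 are heparan sulphate proteoglycans that present growth factors to receptors. Caveolin 1 shapes membrane caveolae, CXCR4 is the receptor of the chemokine CXCL12, and CD34 and podoplanin (from Pdpn) are sialomucins of the cell surface. Several of these proteins are not confined to muscle stem cells. For example, vascular endothelium also makes CD34 and VCAM1, and lymphatic endothelium and stromal fibroblasts make podoplanin.

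Peaks were found at 7 of the 9 genes, where 31.6% of all protein-coding genes had at least 1 within the same distance. Ncam1, Vcam1 and Sdc4 had 4 peaks each and Cav1 had 3, so 15 of the 18 peaks stood at 4 genes. Cdh15, Cxcr4 and Pdpn had 1 each. Among all protein-coding genes, 3.08% reached 3 peaks and 1.09% reached 4. The gene spans were of usual size, with a median of 22.5 kb for the 9 genes and 17.2 kb for all protein-coding genes, except for Ncam1 at 297 kb. Among genes of 10 to 40 kb, the range that holds 7 of the others (Cxcr4 is 4.10 kb long), 33.4% had a peak within the distance.

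**Figure D1:**
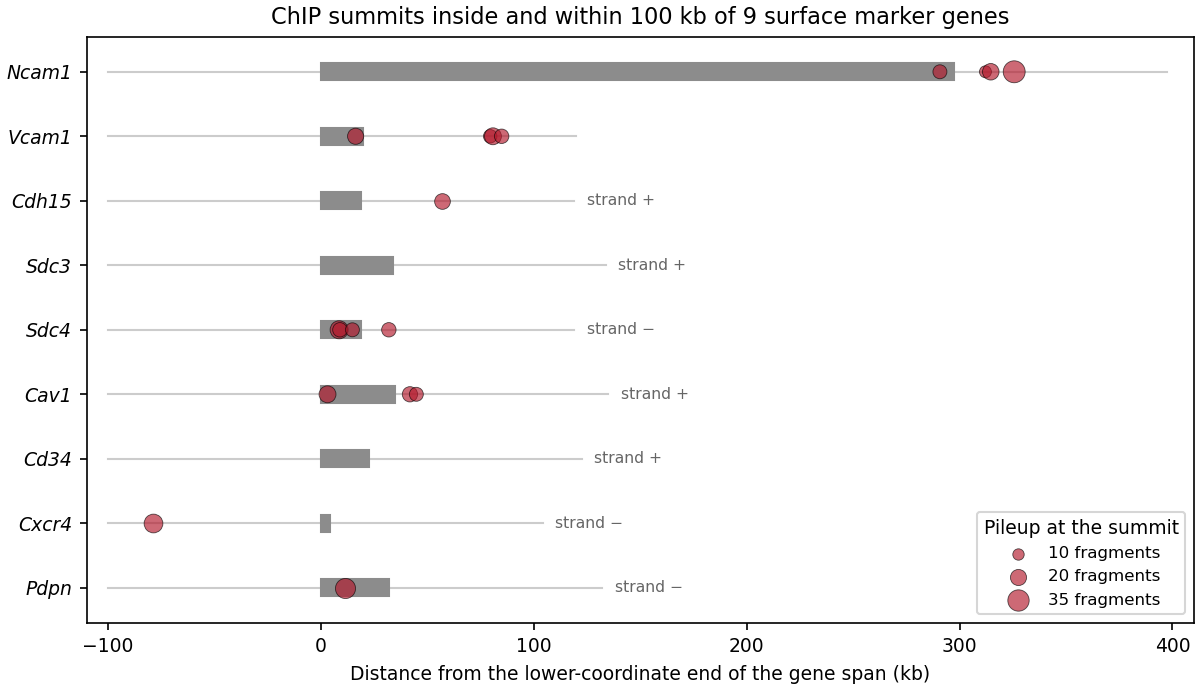
Position of the 18 ChIP summits at 9 surface marker genes, with distance from the lower-coordinate end of each gene span in kb on the x axis, grey boxes for the spans, grey lines for the 100 kb on both sides and circles whose area grows with the pileup in fragments. Ncam1, Vcam1 and Sdc4 carry 4 circles each, and the lines of Sdc3 and Cd34 are empty.

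Ncam1, an adhesion molecule of the immunoglobulin family, held the strongest peak of the group at the edge of its locus. The gene lies at chromosome 9, 49502129 to 49799393, and its 4 summits crowded at the higher-coordinate end within 34.9 kb. The first was inside the gene, 6497 bp from that end, at 49792744 to 49793006. Its pileup (ChIP fragments that cover the summit) was 15 and its fold enrichment over the local input background was 7.84 (4.61 to 12.6). The other three lay beyond the gene at 14.9, 17.4 and 28.4 kb, with pileups of 11, 21 and 37. Their folds were 6.07 (3.28 to 10.5), 10.6 (6.75 to 16.0) and 19.2 (13.7 to 26.3). So the values differed within the locus, with the outermost peak at the top: its interval lay above those of the peaks with pileups of 15 and 11 and overlapped that of the peak with 21. The peak at 49827585 to 49827962 ranked 9 of 2977 by fold, with a −log10 q of 39.5, and its local background was at the floor of the list, 0.977 fragments. No other protein-coding gene was nearer to any of the 4 summits, although Drd2, Ankk1 and Ttc12 also reached into the window. The small nuclear RNA gene Gm25633 was closer to the 3 outer summits, at 11585, 9085 and 1817 bp, the last from the strongest peak. The nearest summit outside the window was 290 kb away.

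Vcam1 encodes a further adhesion molecule of the immunoglobulin family, which binds integrins on other cells. It lies at chromosome 3, 116110020 to 116129688. A peak stood inside the gene at 116126143 to 116126711, 3358 bp from the higher-coordinate end. It reached 10.6-fold (6.69 to 16.1) on 20 fragments. At 569 bp it was among the widest of the group, against a median width of 230 bp for all peaks. The other 3 summits formed a cluster of 5372 bp at a distance of 59.9 to 65.2 kb, with pileups of 14, 22 and 16. Their folds were 6.94 (4.002 to 11.3), 8.99 (5.78 to 13.4) and 7.55 (4.51 to 12.0), and all 4 intervals at this locus overlapped. Vcam1 was the nearest protein-coding gene for the first summit of the cluster and not for the other two. The long noncoding RNA gene Gm31651 was closer to all 3, at 3274 to 8646 bp.

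Cdh15, the gene of M-cadherin, had a single peak that lay inside a neighbouring gene. Cdh15 lies on the plus strand of chromosome 8, 122848374 to 122867397. The peak at 122905362 to 122905680 was 38.1 kb downstream and reached 9.25-fold (5.75 to 14.2) on 19 fragments. Its summit fell within the span of Ankrd11, a gene for an ankyrin repeat chromatin regulator, so Cdh15 was not the nearest gene of any peak. The summit also fell within the long noncoding RNA gene Gm39273.

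Of the syndecan genes of the set, Sdc4 had 4 peaks and Sdc3 had none. Sdc4, whose product is a co-receptor for fibroblast growth factors and fibronectin, lies on the minus strand of chromosome 2, 164424247 to 164443188. Inside the gene, 3 summits stood 4141, 10016 and 10374 bp after its start. Their pileups were 15, 16 and 25, and their folds 8.09 (4.75 to 13.02), 8.20 (4.89 to 13.02) and 11.5 (7.63 to 16.8). The stronger pair of these were close neighbours, with summits 358 bp apart and edges 129 bp apart, and whether they are separate sites was not tested. The fourth summit lay 12977 bp upstream, with a pileup of 16 and the lowest fold of the group, 5.52 (3.29 to 8.76). It was only 765 bp from Sys1, a gene of Golgi transport, and its local background of 2.08 fragments was the highest among the 18 peaks. Sdc4 also had the most crowded window, with 8 other protein-coding genes, against 0 to 3 at the other members. Sdc3, at chromosome 4, 130792537 to 130826318, was 272 kb from the nearest summit.

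Cav1 had 3 peaks, the strongest close to its start sites. The gene lies on the plus strand of chromosome 6, 17306335 to 17341328, and RefSeq lists 2 starts, at 17306335 and 17307640. The peak at 17309170 to 17309751, the widest of the group at 582 bp, had its summit 1812 bp after the second start. Its pileup was 22 and its fold 11.6 (7.48 to 17.4). The other summits lay past the far end of the gene, 6.84 and 9.84 kb downstream and 2999 bp from each other. They had pileups of 18 and 15, with folds of 8.11 (4.98 to 12.6) and 8.03 (4.71 to 12.9), and all 3 intervals overlapped. Cav2, which encodes the partner protein in caveolae, lies 17.2 kb from Cav1 on the other side, and all 3 peaks were nearer to Cav1.

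Pdpn, the podoplanin gene, had the second strongest peak of the group as its single one. It lies on the minus strand of chromosome 4, 143267409 to 143299564. The peak at 143278392 to 143278814 stood inside the gene, 20.9 kb after the start. It had a pileup of 31, a fold of 16.2 (11.2 to 22.8) and a −log10 q of 30.5, and ranked 22 of 2977 by fold with a local background at the floor. The nearest summit outside the window was 517 kb away. Cd34, the other sialomucin gene of the set, lies at chromosome 1, 194938821 to 194961292, on the plus strand and was 436 kb from the nearest summit, farther than any other member.

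Cxcr4, at chromosome 1, 128588199 to 128592299, on the minus strand, had 1 peak far downstream. The peak at 128508781 to 128509271 had its summit 79.1 kb from the gene and 83.2 kb from its start. Its pileup was 27 and its fold 11.1 (7.46 to 16.0). There was no other protein-coding gene in the window, so Cxcr4 was the nearest one. The small nuclear RNA gene LOC115487618 was closer to the summit, at 6000 bp. This summit was also the farthest from its gene among the 18. The next summit on that side was just outside the limit, at 105 kb (9.61-fold on 18 fragments), and stood closer to Dars at 65.8 kb.

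**Figure D2:**
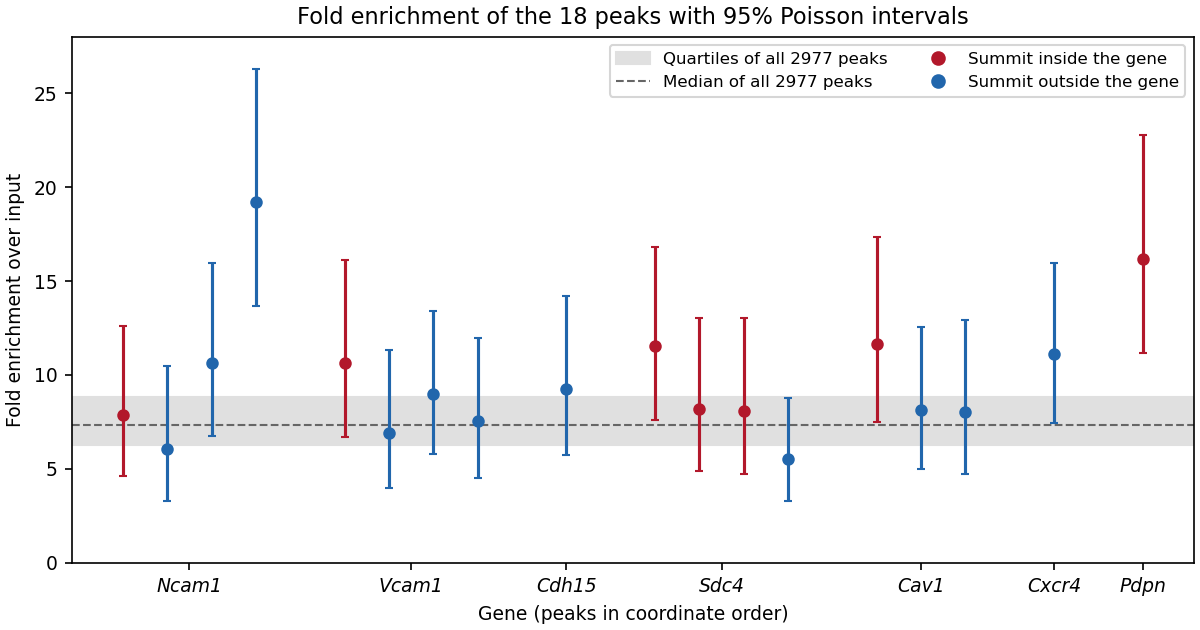
Fold enrichment over input on the y axis for each of the 18 peaks, by gene on the x axis and in coordinate order, with 95% Poisson intervals of the pileup, red for summits inside the gene and blue for those outside, and a dashed line and grey band for the median (7.35) and quartiles (6.27 and 8.82) of all 2977 peaks. The outermost Ncam1 peak (19.2) and the Pdpn peak (16.2) stand highest, and the intervals of all the others reach into the band.

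By strength, the 18 peaks had a median fold of 8.59, against 7.35 over the whole list, and 15 of the 18 were above that median. Pileups ran from 11 to 37 with a median of 18.5, against a median of 15 for all peaks. The interval of the strongest Ncam1 peak lay above those of 10 of the other 17, and the interval of the Pdpn peak above those of 2. A fold of 10 or more was reached by 7 of the 18 peaks (38.9%) and by 14.4% of all peaks. By gene, 6 of the 9 members had such a peak within 100 kb (not Cdh15, Sdc3 or Cd34), where 6.03% of all protein-coding genes had one. Peaks inside the genes had a median fold of 10.6 and those outside a median of 8.11. The intervals cover counting error of 1 library only.

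**Figure D3:**
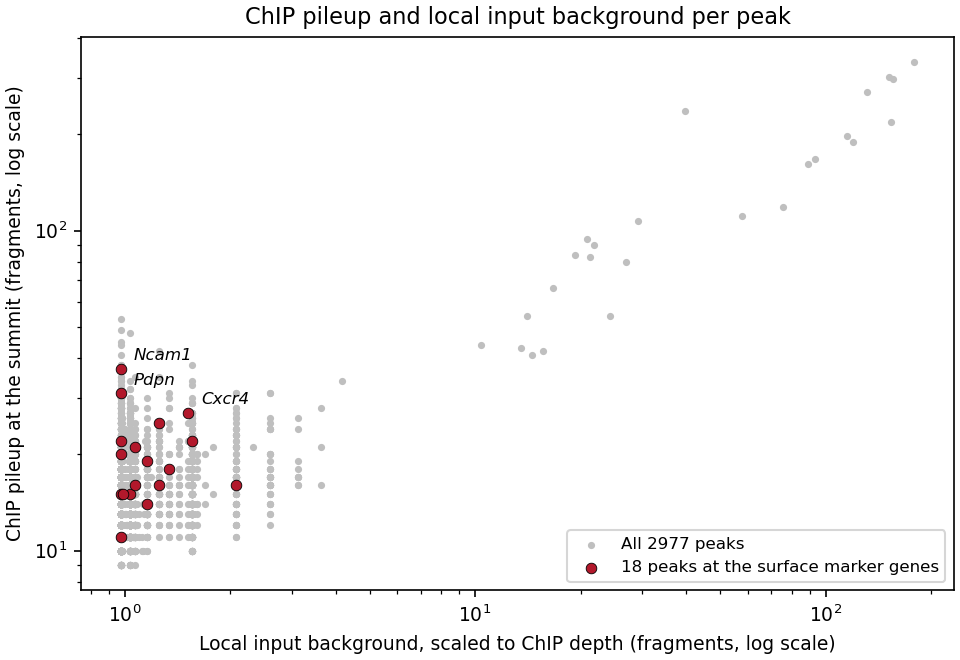
ChIP pileup at the summit (y axis, fragments) against the local input background scaled to the ChIP depth (x axis, fragments), both on log scales, for the 18 peaks (red) and all 2977 peaks (grey). The 18 peaks have 11 to 37 fragments over a background of 0.977 to 2.08, and none lies in the arm of high background.

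The median input at these peaks was close to that of the whole list. The local background was 0.977 to 2.08 fragments at the 18 peaks, with a median of 1.07, against a median of 1.04 and a highest value of 179 over the list. It was at the floor, which is set by the genome average, for 6 of the 18 peaks (33.3%) and for 44.1% of all peaks. The lowest pileup on the list was 9 fragments, so a region at Sdc3 or Cd34 with fewer fragments was not detectable at this depth.

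By position, 7 of the 18 summits lay inside the gene they were counted for and 11 outside it. A summit inside the span was found at 5 of the 9 genes (Ncam1, Vcam1, Sdc4, Cav1 and Pdpn), where 5.49% of all protein-coding genes had one. The share depends on length, at 4.19% for genes of 10 to 40 kb and 18.9% for genes of 100 kb or more. Of the 11 outer summits, 10 stood on the higher-coordinate side and that of Cxcr4 on the lower side. RefSeq start sites gave the strand for 5 of the 11 outer summits, of which 4 were downstream and 1, at Sdc4, upstream. For the 3 outer summits of Ncam1 and the 3 of Vcam1 no strand was used, so upstream or downstream was not determined. In 14 of the 18 cases the member was the nearest protein-coding gene, and this held for at least 1 peak of 6 genes (all with peaks except Cdh15), where 9.56% of all protein-coding genes were the nearest to a summit within 100 kb.

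No member peak lay on a promoter window of the table used. Such a window, from 250 bases before to 50 after a RefSeq start, was overlapped by 0 of the 18 peaks and by 22.1% of all peaks. Promoter windows of Ncam1 and Vcam1, which had 8 of the 18 peaks, were not used here. The smallest distance of a summit from either end of its member was 3117 bp, at Cav1. Only the Sdc4 summit beside Sys1 was within 1000 bp of an end of any protein-coding gene, against 29.1% of all summits. Neighbours were frequent: 10 of the 18 summits (55.6%) had another summit within 10 kb, against 14.6% of all summits. This includes the pair of Sdc4 that were 358 bp apart.

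**Figure D4:**
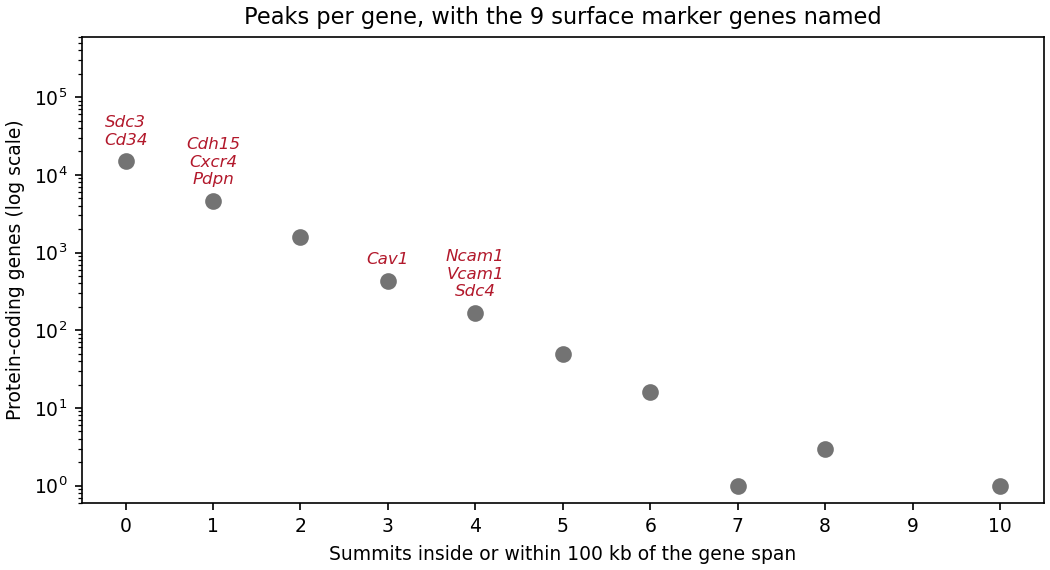
Number of protein-coding genes (y axis, log scale) by their number of summits inside or within 100 kb (x axis), with the surface marker genes named above the point they belong to. Ncam1, Vcam1 and Sdc4 share 4 summits with 165 other genes, and Sdc3 and Cd34 stand among the 14891 genes that have 0.

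The bases of the peaks were not analysed here, but RefSeq promoter windows of GRCm38.p6 were at hand for 7 of the 9 members. Those of Cav1 and Sdc4 are shown because their starts were the closest to a peak of their own gene, and that of Cd34 because it held the paired domain core although the gene had no peak. Sequences run 5′ to 3′ on the gene's strand, at chr6:17306085-17306384 and chr6:17307390-17307689 (Cav1, plus strand), chr2:164443139-164443438 (Sdc4, minus strand) and chr1:194938571-194938870 (Cd34, plus strand). Capitals mark each match of the letters searched on both strands, which were the homeodomain core TAAT, the paired domain core GTCACG, the E-box CAGCTG and the AP-1 site TGANTCA.
Cav1 first start: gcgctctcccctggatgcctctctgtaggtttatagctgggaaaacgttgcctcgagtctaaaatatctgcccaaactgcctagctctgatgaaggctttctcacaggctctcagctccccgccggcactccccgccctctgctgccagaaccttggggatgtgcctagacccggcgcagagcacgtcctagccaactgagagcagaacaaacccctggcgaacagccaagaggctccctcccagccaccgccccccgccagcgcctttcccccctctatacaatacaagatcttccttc
Cav1 second start: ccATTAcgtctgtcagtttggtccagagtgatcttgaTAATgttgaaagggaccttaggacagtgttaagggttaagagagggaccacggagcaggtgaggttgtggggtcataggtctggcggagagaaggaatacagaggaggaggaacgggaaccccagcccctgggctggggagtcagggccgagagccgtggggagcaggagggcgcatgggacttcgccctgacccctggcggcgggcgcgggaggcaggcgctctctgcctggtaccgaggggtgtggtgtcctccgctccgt
Sdc4: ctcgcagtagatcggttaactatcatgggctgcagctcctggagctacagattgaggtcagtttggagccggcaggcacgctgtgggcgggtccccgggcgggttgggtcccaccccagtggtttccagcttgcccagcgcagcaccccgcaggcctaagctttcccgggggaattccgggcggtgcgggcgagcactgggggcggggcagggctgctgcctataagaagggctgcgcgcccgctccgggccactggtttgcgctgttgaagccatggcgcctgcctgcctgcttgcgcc
Cd34: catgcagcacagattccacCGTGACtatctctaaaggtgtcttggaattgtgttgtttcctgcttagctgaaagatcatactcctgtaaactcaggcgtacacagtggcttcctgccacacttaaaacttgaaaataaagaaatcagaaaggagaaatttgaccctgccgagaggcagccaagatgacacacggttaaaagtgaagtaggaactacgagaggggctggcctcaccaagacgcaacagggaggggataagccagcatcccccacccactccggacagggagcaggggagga

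PAX7 binds DNA through both its homeodomain, which reads TAAT, and its paired domain. TAAT or its reverse complement ATTA stood in 3 of the 8 member windows (the second Cav1 start, Cxcr4 and Pdpn) and in 51.8% of the 21263 windows of protein-coding genes. The paired domain core stood in 1 of 8, that of Cd34, and in 9.82% of all. The E-box (15.6% of all) and the AP-1 site (6.99% of all) stood in 0 of 8. The pair TAAT and ATTA with 2 or 3 bases between, which overlaps the single core, also stood in 0 of 8 and was in 0.315% and 0.362% of all. These are matches of letters in windows where no member peak lay.

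Partners and relatives of the 9 proteins were counted from a list of 23 genes. Of these 12 had a peak within 100 kb (52.2%, against 31.6% of all protein-coding genes). The count was 6 with a limit of 10 kb (10.9% of all) and 7 without the peaks below the median −log10 q (18.5% of all). Ackr3, the scavenger receptor for the ligand of CXCR4, had 3 peaks, the strongest at 9.10-fold (5.51 to 14.3) and 22.8 kb from the gene. Cavin1, which encodes a coat protein of caveolae, had 1 peak of 9.61-fold (5.90 to 14.9) at 17.0 kb, although Stat3 was nearer to it. The peak of Podxl2, a relative of Cd34, had 9.10-fold at 449 bp and was nearer to Abtb1. The peaks counted for Cav2 were those of Cav1. No peak was within 100 kb of the syndecan genes Sdc1 and Sdc2, of Ncam2 or of Cav3. The same held for Cxcl12, the ligand of CXCR4, for Itga4, an integrin chain that binds VCAM1, and for Clec1b, a receptor of podoplanin.

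A peak on a promoter window was found at 0 of the 7 members with an entry (all but Ncam1 and Vcam1), at 1 of 19 partner genes and at 2 of 17 other surface genes, where 3.83% of the 17492 protein-coding genes with an entry had one. The partner gene was Ctnnb1, the gene of beta-catenin that links cadherins to the cytoskeleton, and the other surface genes were Cd82 at 6.47-fold and Notch2 at 6.07-fold, all named here with their values known. RefSeq lists 2 starts of Ctnnb1, and the summit was 17 bp before the first and 195 bp before the second, at 6.07-fold (3.28 to 10.5) on 11 fragments. The part of the peak inside the window of the first start, chr9:120933338-120933449 on the plus strand, is shown as the counterpart of the member windows. The window of the second start holds the whole peak, and neither window held the letters searched.
Ctnnb1: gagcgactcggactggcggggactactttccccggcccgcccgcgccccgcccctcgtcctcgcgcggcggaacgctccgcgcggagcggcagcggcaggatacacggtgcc

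Other surface proteins of muscle stem cells were counted from a list of 20 genes, of which 15 had a peak within 100 kb, against 31.6% of all protein-coding genes. Without the peaks below the median −log10 q the count was 7 of 20, against 18.5% of all. The 15 genes had 1 or 2 peaks each, so 0 of the 20 reached 3 peaks, a number that 3.08% of all protein-coding genes reached. Cd81, a tetraspanin gene, reached 13.2-fold (8.69 to 19.2) in a peak 1359 bp away that was nearer to Tssc4. Cd200, a gene of an immune inhibitory ligand, reached 9.71-fold (6.11 to 14.7) at 53.3 kb, and the calcitonin receptor gene Calcr and the receptor gene Notch2 both reached 8.60-fold inside the gene. Itgb1, which encodes the beta chain of the integrins that bind laminin and VCAM1, stood in both lists with 2 peaks inside the gene, the stronger at 8.20-fold (5.16 to 12.5). Itga7, the laminin-binding alpha chain often used for sorting, had none, its nearest summit being 343 kb away.

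Markers of the cells that the sort could hold were counted in the same way, which describes binding and not expression or purity, beside the same 31.6% of all protein-coding genes. Among 8 muscle stem cell genes 4 had a peak within 100 kb, which were Pax7, Chrdl2 at 13.2-fold, Myod1 at 11.8-fold and Calcr. Among 5 endothelial genes 3 did, Pecam1 at 13.2-fold, Tek at 11.6-fold and Cdh5 at 8.33-fold, and 2 of 4 mural genes did, Rgs5 at 14.7-fold and Cspg4 at 7.08-fold. For fibro-adipogenic cells 2 of 4 genes had one, Cd248 at 7.35-fold and Thy1 at 7.08-fold. The part of such cells in the peaks at Vcam1, Cav1 and Pdpn was not tested. Each marker fold above is that of the strongest peak within 100 kb. The peaks given for Chrdl2, Myod1 and Pecam1 lay outside these genes and were nearer to Pold3, Otog and Tex2, respectively. Those given for Cd248, Thy1 and Cspg4 also lay outside, nearer to Klc2, Usp2 and Imp3. Pecam1 had another peak inside the gene. Pax7, Calcr, Tek, Cdh5 and Rgs5 were the nearest protein-coding genes to theirs. The markers without a peak within 100 kb were Heyl, Myf5, Pax3 and Spry1 for muscle stem cells. They were Kdr and Tie1 for endothelial cells, Acta2 and Pdgfrb for mural cells, and Ly6a and Pdgfra for fibro-adipogenic cells.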

How the data were processed

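ChIP DNA and input DNA from sorted muscle stem cells were sequenced as single-end reads, per the labels' protocols. Per the submitters' processing notes, the tools included HISAT2 2.10, MACS2 2.1.1 and bcl2fastq 2.16, with GRCm38 as the build and no role given. Peaks had been called by the authors with MACS 2.1.1.20160309 at a q limit of 0.01, on 1 library against 1 library and with at most 1 tag kept per position, per the file headers. As deposited, pileup is the coverage signal of 172 bp ChIP fragments at a summit. The deposited fold is a ratio, pileup + 1 over scaled local input + 1, with the input scaled by 0.5199 to the ChIP depth. The −log10 values of p and q (p-value, q-value) were deposited as the caller's own. Positions are 1-based.

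From these values the local background was recovered, and 95% intervals of each fold were computed from exact Poisson limits on the pileup (SciPy 1.17.1), with the background fixed; they cover counting error only. Gene spans, start sites and promoter sequences came from RefSeq tables of GRCm38.p6 without scaffold genes. Assignment was checked on simulated data. Named genes were all members and, per other list, up to 4 with the highest folds; Itgb1, Ctnnb1, Itga7 and the genes without peaks were named after their values were seen. Members and lists were chosen with earlier results of these data known. No genome sequence was used, so motifs were searched in promoters only. Some genes that the rule names, and the count of 1 marker list, are not reported here.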

Additional observations from a re-analysis of the deposited data

How the results depend on the processing

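Each of 6 summary values was recomputed under 8 alternatives, and 44 of the 48 values stayed within 1.5 times the reported count or, for the median fold, within the counting interval of a median peak. This tally is no measure of robustness. The interval is that of 1 peak and so is wide for a median of several peaks. Some alternatives could remove no member peak, as given below. The number of members with a peak was 5 with a limit of 10 kb (10.9% of all protein-coding genes), 6 with 50 kb (21.5%) and 7 with 200 kb (46.7%), and 7 under the other alternatives. The number of member peaks fell to 9 with the limit of 10 kb, and was 14 to 20 otherwise. With that limit 6 partner genes had a peak. When the weaker part of the list by q was left out (below the median −log10 q), 7 partner genes and 7 other surface genes had one (18.5% of all protein-coding genes), while 7 members and 15 of their peaks were left. The median fold of the member peaks ran from 8.20 to 9.25. Counting summits within 1000 bp as 1 left 17 peaks. Leaving out the top 1% by pileup or backgrounds over 5 fragments could remove none of the 18. Their highest pileup ranked 36 of 2977 and their highest background was 2.08 fragments. No paired analysis was possible because there was 1 ChIP library and 1 input library. With pileups of 11 to 37 fragments, most fold intervals at a locus overlapped.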
